A study of Mus musculus with 1600 samples.

Results

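Osr1, Osr2, Hic1, Tcf7l2, Tbx2, Tbx3, Tbx15, Tbx18, Twist1 and Twist2 encode transcription factors known from limb connective tissue. These 10 genes were taken by name from a table of 22092 gene symbols, and the rule that names them uses no measured value. All 10 had a count in at least 10 cells, a filter that 13125 genes passed. Single cells came from hind limbs of C57BL/6 mouse embryos at the embryonic stages E10.5, E12.5 and E15.5, named for the days of gestation. Every group carried a SCX-GFP transgene. No other allele or treatment is given, and neither is the design of the transgene or a sort on GFP. Limbs of siblings from 1 litter were generally pooled, per the labels' protocols, so each stage is 1 sample and no difference between stages has a replicate check. The 480 cells were labelled with 120, 160 and 200 cells for the 3 stages, in 12 library pools of 40 cells. Pools hold different cells of the same stage. Their spread covers technical differences and which cells were drawn, and pools are not replicates of a stage.

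One stage goes against its tissue label. Levels are given as CPM, the count of a gene per 1000000 counts of the same cells. Pitx1, a factor of hind limb identity, was at 169 CPM at E12.5, and had no count (0) among cells labelled E10.5. Tbx5, a factor of forelimb identity, stood at 0.739 CPM at E12.5 and, among cells labelled E10.5, at 67.9 CPM. Every difference from E10.5 given here therefore carries a possible difference of limb as well as of age, and these cannot be told apart. Prrx1, a marker of limb mesenchyme, was read in 93.9%, 92.6% and 81.6% of cells at the 3 stages, each cell thinned at random to 50000 counts. Leaving out 3 cells in which fewer than 1000 genes were detected, the stages held 33742559, 46009284 and 46035725 counts, with a median of 272198, 250710 and 192228 counts per cell.

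The members belong to several families. Osr1 and Osr2 are zinc finger factors of the odd-skipped family and mark irregular connective tissue of the limb. Hic1 is a zinc finger repressor known from quiescent mesenchymal progenitors. Tcf7l2 is a nuclear partner of beta-catenin in Wnt signalling and a marker of muscle connective tissue. Tbx2 and Tbx3 are T-box repressors that respond to BMP signals and pattern the limb margins. Tbx15 and Tbx18 are T-box factors of early skeletal and mesenchymal progenitors. Twist1 and Twist2 are basic helix-loop-helix factors that pair with E proteins, are restrained by Id proteins, and act in limb bud mesenchyme and dermis. Scx, which marks tendon progenitors, and Sox9, which drives cartilage formation, served as reference factors for the neighbouring lineages.

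Osr2 and Hic1 were near or at 0 in the cells labelled E10.5 and present from E12.5 on. Osr1 was already read in 12 of 119 cells labelled E10.5, at 7.32 CPM over the stage, and was higher from E12.5 on. Twist2 was higher at each later stage. Tcf7l2, Tbx15 and Twist1 were present from the earliest stage. Tbx15 and Twist1 differed little between stages, and Tcf7l2 was highest at E12.5, at 236 CPM. Tbx2 and Tbx3 had their highest sums in the cells labelled E10.5, and Tbx18 had its highest sum at E12.5. With all pools, no difference of Tcf7l2, Tbx2, Tbx3 or Tbx18 was called by the rule that follows. A difference was called when the log2 ratio of stage sums, with 5 CPM added, was at least 1 in size and the pools of the higher stage all exceeded those of the lower. By this rule E12.5 exceeded E10.5 for 4 of the 10 factors, where it did so for 7.76% of all genes. None was lower, where 2.83% of all genes were. In the comparison of E15.5 with E12.5, 1 of the 10 was higher and 0 were lower, against 2.99% and 1.63% of all genes. Over the 10 factors the median log2 ratio was 0.74 in the first comparison and 0.03 in the second, against 0.17 and -0.04 over all genes.

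**Figure D1:**
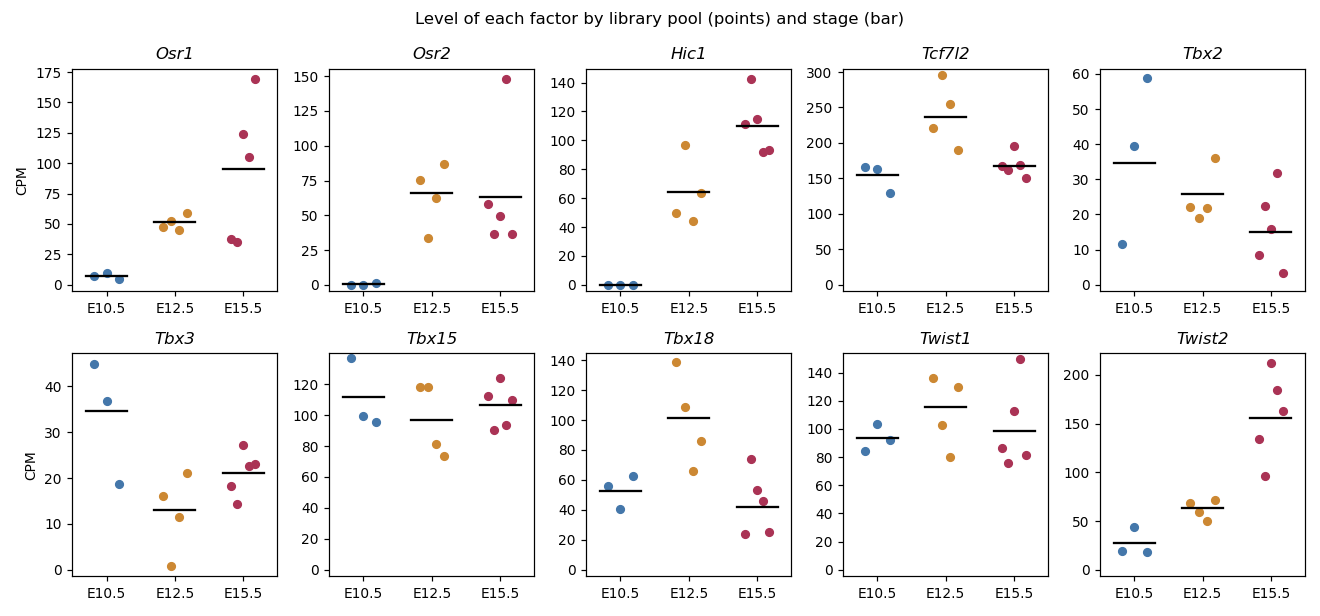
Level of each factor in CPM (counts of the gene per 1000000 counts, linear axis from 0) for the 12 library pools (points) and the 3 stages (bars, counts summed over all cells of a stage). Osr1, Osr2, Hic1 and Twist2 have every E12.5 pool above every E10.5 pool, and Twist2 also has every E15.5 pool above every E12.5 pool.

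Hic1 had 0 counts in all 119 kept cells labelled E10.5. Its 4 pools of E12.5 read 49.6, 96.6, 44.2 and 63.4 CPM, and its 5 pools of E15.5 read 111, 143, 115, 92.0 and 93.0 CPM. The pools of E12.5 and E15.5 overlapped only through the highest E12.5 pool. The E12.5 sum was 64.3 CPM (exact Poisson 95% interval 62.0 to 66.7, counting error only). Set against a floor of 3 counts over the E10.5 stage, it was 723-fold higher. That ratio is set by the floor and is not a lower limit, since reads are not independent molecules. In such sums, fewer cells with a transcript and less of it per cell cannot be told apart. The log2 ratio of E15.5 to E12.5 was 0.73, under the size a call needs. Among thinned cells labelled E10.5, 0 of 115 had a Hic1 count. By 3 counts of the total this allows a share of up to 2.61%, and the exact upper bound is 3.16%; both limit the cells with a count at this depth, not the cells with the transcript. At E12.5 it was read in 36.9% of cells (exact Clopper-Pearson 95% interval 29.2 to 45.2) and at E15.5 in 49.2% (41.8 to 56.6).

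Osr1 read 7.24, 9.36 and 4.91 CPM in the 3 pools labelled E10.5. At E12.5 it read 47.9, 52.5, 44.9 and 58.9 CPM, and at E15.5 it read 37.6, 34.8, 124, 105 and 170 CPM. The E12.5 pools lay close together, whereas at E15.5 a pair of pools fell below every E12.5 pool and the other 3 lay above them all. The sum was 7.09-fold higher at E12.5 than at E10.5, a log2 ratio of 2.21. From E12.5 to E15.5 the log2 ratio was 0.81, and it was not called. A single cell held 38.1% of the 247 counts at E10.5, where 8 of 115 thinned cells (6.96%) had a count. Without thinning, the median level in cells with an Osr1 count was 48.3, 30.6 and 48.9 CPM at the 3 stages.

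Osr2, the paralog, had 11 counts among cells labelled E10.5, all in 1 pool. Its E12.5 pools read 75.1, 33.6, 62.6 and 86.6 CPM, and its E15.5 pools read 58.2, 36.7, 49.8, 148 and 36.5 CPM. Stage sums at E12.5 and E15.5 were alike in size, at 66.3 and 63.1 CPM, with overlapping pools and a log2 ratio of -0.07. The E12.5 sum was 203-fold above the 0.326 CPM of the cells labelled E10.5 (0.163 to 0.583), a ratio that rests on those few counts. Shares of thinned cells were 0.870%, 27.5% and 34.1% at the 3 stages.

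Twist2 read 18.7, 43.7 and 18.6 CPM in the pools labelled E10.5. At E12.5 it read 68.4, 59.4, 49.7 and 72.1 CPM, and at E15.5 it read 134, 96.5, 212, 184 and 163 CPM. The 3 stages did not overlap in any pool. The E12.5 sum was 2.33-fold that of E10.5 (log2 ratio 1.09), and the E15.5 sum was 2.45-fold that of E12.5 (log2 ratio 1.23). The first of these calls lay close to its limit. Without library pool 1 the log2 ratio was 0.88, without library pool 3 it was 0.94, and neither was called. The second held when any single pool was left out. Shares of thinned cells were 23.5% (16.1 to 32.3), 36.2% (28.5 to 44.5) and 50.3% (42.8 to 57.7).

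Twist1 differed from its paralog in this course. Its stage sums were 93.2, 115 and 98.8 CPM, its pools ranged from 76.0 to 150 CPM over all 3 stages, and they overlapped throughout. Its share of thinned cells was 68.7% (59.4 to 77.0), 61.1% (52.8 to 69.0) and 57.3% (49.8 to 64.5). Tcf7l2 read 155, 236 and 168 CPM, and its lowest E12.5 pool, at 190 CPM, lay above every E10.5 pool but below the highest E15.5 pool, at 195 CPM. Its log2 ratios of 0.59 and -0.48 were under the size a call needs. Tbx15 read 112, 97.2 and 107 CPM with overlapping pools and log2 ratios of -0.20 and 0.13. Each of these 3 genes was read in over 40% of thinned cells at every stage, the lowest share being 44.3% for Tbx15 at E15.5.

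Tbx3 read 45.0, 36.8 and 18.6 CPM in the pools labelled E10.5. At E12.5 it read 16.1, 0.717, 11.5 and 21.0 CPM, and at E15.5 it read 18.4, 14.3, 27.2, 22.7 and 23.1 CPM. The E10.5 sum of 34.6 CPM was 2.65-fold above the E12.5 sum of 13.1 CPM, but 1 pool of each stage overlapped and the difference was not called. Without library pool 3 the log2 ratio was -1.35 and without library pool 7 it was -1.46, and both were called lower. The share of thinned cells was 33.9% (25.3 to 43.3) at E10.5 and 12.1% (7.32 to 18.4) at E12.5. Tbx2 had stage sums of 34.6, 25.7 and 15.0 CPM, with pools from 3.45 to 58.8 CPM that overlapped in both comparisons. Its log2 ratio of E12.5 to E10.5 was -0.37 and ranged from -0.79 to 0.03 over the alternatives run. A single cell held 20.0% of its 1169 counts at E10.5.

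Tbx18 read 56.0, 40.8 and 62.7 CPM in the pools labelled E10.5, then 139, 109, 65.9 and 86.0 CPM at E12.5. At E15.5 it read 23.5, 73.9, 53.0, 46.2 and 25.1 CPM. Every E12.5 pool exceeded every E10.5 pool, but the log2 ratio of 0.88 fell short of a call. From E12.5 to E15.5 the log2 ratio was -1.19 and the lowest E12.5 pool overlapped the highest E15.5 pool. Leaving out library pool 6 (log2 ratio -1.29) or library pool 9 (-1.42) gave a call of lower. Its share of thinned cells was 34.8%, 46.3% and 27.6%.

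**Figure D2:**
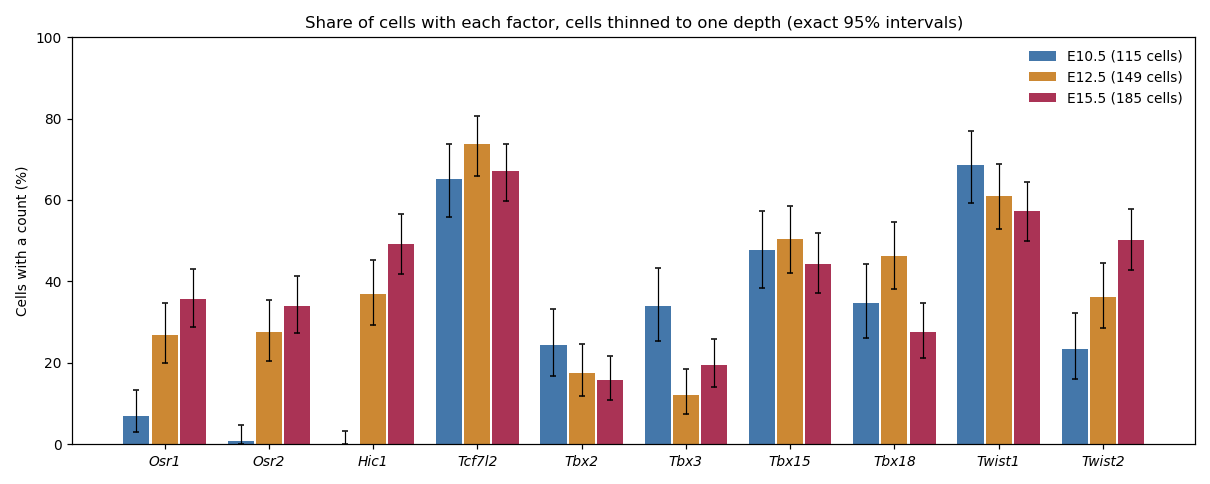
Share of cells with at least 1 count of each factor at the 3 stages (percent, linear axis from 0), each cell thinned to 50000 counts, in 115, 149 and 185 cells; error bars are exact 95% intervals for counting error only. Hic1 goes from 0% to 36.9% and 49.2%, while Tcf7l2 and Twist1 stay between 57.3% and 73.8%.

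The shares depend on how many counts are asked for. Counting only cells with 3 or more counts lowered the shares and left the same factors at the bottom of E10.5, with Hic1 at 0%, Osr2 at 0% and Osr1 at 4.35%. At E15.5 epithelial-like cells gave a further reference, since Osr1, Hic1, Twist1 and Twist2 are known as mesenchymal genes. Among 27 such cells Twist2 was read in 25.9% (11.1 to 46.3), Twist1 in 29.6%, Hic1 in 33.3% and Osr1 in 14.8%. Each of these shares lay below the share over all cells of the stage. The epithelial-like cells had a median of 261274 counts against 168020 in fibrillar matrix-like cells. Where their counts of the factors came from was not tested, and doublets were not called.

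RefSeq promoter entries (build GRCm38.p6) were matched for 5 of the 10 genes by symbol. Entries for Osr1, Osr2, Tbx2, Tbx3 and Tbx15 were not matched. The 250 bases upstream of an annotated start are shown for Hic1, the factor with 0 counts in the first stage, and for the Twist paralogs, of which 1 was called between stages and the other was not. They are written 5′ to 3′ on the gene's strand in lower case. Capitals mark GGGCGG (the GC box), CCAAT and TATAAA on either strand, where neighbouring GC boxes may overlap.
Hic1, chr11:75168153-75168402, minus strand: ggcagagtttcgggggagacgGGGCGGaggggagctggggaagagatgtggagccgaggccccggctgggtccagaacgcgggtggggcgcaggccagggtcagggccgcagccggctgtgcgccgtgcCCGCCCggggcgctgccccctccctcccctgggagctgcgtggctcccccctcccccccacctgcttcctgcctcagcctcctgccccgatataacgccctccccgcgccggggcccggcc
Twist1, chr12:33957421-33957670, plus strand: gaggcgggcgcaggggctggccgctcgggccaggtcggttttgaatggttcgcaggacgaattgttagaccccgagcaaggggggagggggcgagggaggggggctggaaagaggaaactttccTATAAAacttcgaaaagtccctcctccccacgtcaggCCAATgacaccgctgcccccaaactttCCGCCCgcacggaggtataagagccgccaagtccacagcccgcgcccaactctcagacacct
Twist2, chr1:91801211-91801460, plus strand: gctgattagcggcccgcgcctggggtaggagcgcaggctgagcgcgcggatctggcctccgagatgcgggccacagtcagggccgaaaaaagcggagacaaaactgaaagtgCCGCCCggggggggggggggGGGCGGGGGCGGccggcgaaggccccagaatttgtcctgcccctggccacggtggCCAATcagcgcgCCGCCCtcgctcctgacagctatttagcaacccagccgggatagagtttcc
GGGCGG occurred 2 times in the Hic1 window, 1 time in that of Twist1 and 4 times in that of Twist2, and 32.7% of 32851 promoter windows of this length held it. CCAAT occurred 1 time in each Twist window and not in the printed Hic1 window, against 33.8% of all windows. TATAAA occurred 1 time, in Twist1, against 12.4% of all windows. A second Hic1 entry, chr11:75170256-75170505, not printed, held GGGCGG 3 times and CCAAT 2 times, with 64.4% GC. GC content of the printed windows was 77.2% for Hic1, 62.4% for Twist1 and 68.8% for Twist2, against a median of 52.4%. The Hic1 window lies in an intron of a longer annotated Hic1 transcript, and the Twist2 window lies in an exon of the noncoding gene Gm29100 on the other strand.

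In the GENCODE M21 annotation (GRCm38) Hic1 spans chr11:75164565-75169519 on the minus strand, Twist1 spans chr12:33957671-33959829 and Twist2 spans chr1:91801461-91848028, both on the plus strand. Osr1 lies at chr12:9570116-9581500 and Osr2 at chr15:35296098-35303305. Osr1, Tcf7l2, Tbx3, Tbx15, Tbx18 and Twist2 each overlap at least 1 annotated gene that is not a row of the count table. For the counting, a strand setting is not given in the sources used here. Reads of such overlapping genes cannot be told apart from reads of the factors. The transcripts of Osr1 and Osr2, of Tbx2 and Tbx3, of Tbx15 and Tbx18, and of Twist1 and Twist2 share 0 stretches of 30 bases. Scx overlaps Bop1, which is a row of the table, and the same limit holds for its counts.

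Matrix genes were called in larger numbers. Of 25 measured genes of fibrillar matrix, 22 were called higher in the first comparison and 21 in the second, with none lower, and their median log2 ratios were 1.98 and 2.20. Dcn, which encodes the collagen-binding proteoglycan decorin, went from 0.0296 to 146 and 844 CPM. Scx stood at 60.3, 826 and 226 CPM, called higher at E12.5 and not called at E15.5. Without library pool 11 Scx was called lower at E15.5, with a log2 ratio of -2.83. Sox9 stood at 58.7, 236 and 143 CPM and was likewise called in the first comparison only. Of 26 other connective tissue and mesenchyme factors 13 were higher at E12.5, led by Pitx1, Nfix, Nfia and Tbx4, and Tbx5 and Alx4 were lower. Pitx1 and Tbx5 are the limb identity factors that went against the label of the E10.5 cells. Tbx4, another factor of hind limb identity, went the way of Pitx1, from 5.63 CPM at E10.5 to 79.0 CPM at E12.5. Limb and age therefore cannot be told apart here. At E15.5 Nfib, Nfix and Zeb2 were higher, and Prrx2, Pitx1, Lhx9 and Lhx2 were lower.

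Partners and inhibitors of Twist proteins were called in both comparisons, which share the E12.5 cells. At E12.5, 4 of 8 were higher than at E10.5. These were the E protein gene Tcf4 (704 to 1630 CPM), the partner gene Hand2 (53.8 to 115 CPM) and the inhibitor genes Id1 (233 to 508 CPM) and Id3 (299 to 934 CPM). At E15.5 none of the 8 was higher and 4 were lower: Hand2 at 40.0 CPM, Id1 at 122 CPM, Id2 at 157 CPM and Id3 at 422 CPM. Twist2 was higher in that same comparison, and Twist1 was not called.

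Signalling genes tied to the other factors were called in both directions in the first comparison, where 7.76% of all genes were higher and 2.83% lower. Among 11 Wnt transducers and targets, the pathway in which Tcf7l2 acts, Lgr5 and Wnt5a were higher at E12.5 and Lef1 was lower, and 0 were called at E15.5. The shared target gene Axin2 read 36.9, 52.0 and 51.4 CPM. Among 14 BMP genes, which act upstream of Tbx2 and Tbx3, the ligand gene Bmp2 and the receptor gene Bmpr2 were higher at E12.5, and the ligand gene Bmp7 and the antagonist gene Grem1 were lower. At E15.5 the target genes Msx1 (457 to 171 CPM) and Msx2 (29.1 to 6.23 CPM) were lower. None of 7 Hedgehog genes was called in either comparison. Of 8 fibroblast surface genes Pdgfra was higher at E12.5, and Thy1, Dpt and Cd44 were higher at E15.5.

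Other cell types and handling moved with the stages as well. The summed level of 11 epithelial markers was 23.5, 214 and 1251 CPM, with 2 of 11 called higher in the first comparison and 5 of 11 in the second. Its pools ranged from 9.62 to 34.9 CPM at E10.5, from 26.4 to 443 CPM at E12.5 and from 890 to 1570 CPM at E15.5, with Krt14 at 0 in the first and Krt8 at 0 in the second. The 12 muscle markers summed to 37.4, 968 and 272 CPM and the 11 endothelial markers to 159, 170 and 288 CPM, each with overlapping pools. The 9 stress and dissociation genes summed to 562, 2484 and 4221 CPM, with pools from 495 to 715, from 2180 to 3060 and from 3854 to 4426 CPM and no gene at 0. Of these 9 genes 4 were called higher in the first comparison and 5 in the second, and their part in the levels of the factors was not tested. Left without epithelial-like, endothelial-like and muscle-like cells, the same 4 factors were called higher at E12.5 and Twist2 at E15.5.

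Cells were clustered without the 10 factors, and clusters were named from marker genes of each cell type. The markers do not include the factors, so the levels below are a description of cells grouped by other genes. At E15.5, 128 of 200 cells were fibrillar matrix-like, 28 epithelial-like, 12 cartilage-like, 11 muscle-like and 10 endothelial-like, and 11 stayed unnamed. Most cells of the earlier stages stayed unnamed, 116 of 158 at E12.5 and 114 of 119 in those labelled E10.5. Classes were therefore compared within E15.5.

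Fibrillar matrix-like cells at E15.5 had the higher level of all 10 factors against epithelial-like cells. Twist2 stood at 227 CPM (221 to 232) against 26.3 CPM (22.8 to 30.1), and Twist1 at 124 CPM against 30.6 CPM. Osr1 stood at 123 against 22.7 CPM, Hic1 at 134 against 27.9 CPM and Tbx15 at 140 against 24.1 CPM. Osr2, at 72.2 against 35.1 CPM, and Tcf7l2, at 184 against 88.1 CPM, were separated least among the factors over 50 CPM. A share of 61.2% of fibrillar matrix-like cells (51.7 to 70.1) had Twist2 and 70.7% (61.5 to 78.8) had Twist1.

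The smaller classes rest on few cells. In the 11 unnamed cells Twist1 stood at 349 CPM, Tcf7l2 at 309 CPM, Osr1 at 216 CPM and Hic1 at 206 CPM. Each of these lay above every named class of the stage, with from 36.7% to 53.5% of the counts in 1 cell. In the unnamed cells Twist2 (129 CPM), Tbx15 (51.0 CPM), Tbx2 (2.95 CPM) and Tbx3 (0.421 CPM) lay below fibrillar matrix-like cells. Cartilage-like cells had Tbx15 at 190 CPM and Twist2 at 208 CPM, with 1 cell holding 39.8% and 39.7% of those counts. Twist1 in them stood at 64.3 CPM and was read in 25.0% of 12 cells, against 29.6% of epithelial-like cells. Muscle-like cells had Tcf7l2 at 273 CPM and Osr2 at 110 CPM, with 1 cell holding 37.1% and 66.4% of those counts. Osr2 was read in 27.3% of these 11 cells, against 38.8% of fibrillar matrix-like cells. Muscle-like cells had Twist1 at 2.25 CPM from 6 counts and Tbx3 at 0.375 CPM from 1 count. In endothelial-like cells Tbx2 had 0 counts and Osr2 had 2.34 CPM from 9 counts, while Hic1 stood at 100 CPM with 51.0% of its counts in 1 cell.

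**Figure D3:**
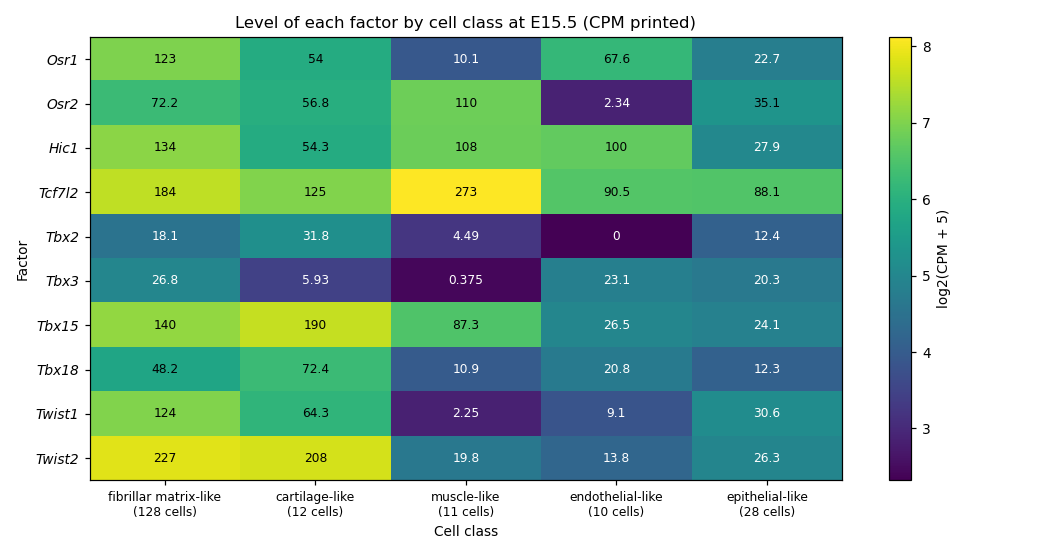
Level of each factor in 5 cell classes at E15.5; printed values are CPM summed over the cells of a class, colour is log2(CPM + 5), and values are to be read along a row, since counts are not scaled by gene length. Among the classes shown, Twist2 stands at 227 CPM in fibrillar matrix-like and 208 CPM in cartilage-like cells, and at 26.3 CPM or less elsewhere. Tcf7l2 reaches 273 CPM in muscle-like cells. The 11 unnamed cells are not shown, and hold Tcf7l2 at 309 CPM and Twist2 at 129 CPM.

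Relations within cells were described by Spearman's rho over the thinned cells of a stage, 115, 149 and 185 cells, with no test. The cells of a stage share their litter and their library pools, and many counts are 0. Shares of genes set beside a rho cover genes read in at least 20% of the stage's thinned cells. Some factors were read in fewer, namely Osr1, Osr2 and Hic1 at E10.5 and Tbx2 and Tbx3 at E12.5 and E15.5. A size of 0.2 was counted. No factor reached it with Scx at E12.5, where rho ranged from -0.16 for Osr2 to 0.09 for Tbx18, or at E15.5, where it ranged from -0.12 for Twist2 to 0.07 for Twist1. In the background 1.99% of genes reached 0.2 with Scx at E12.5 and 0.631% reached -0.2, against 0.621% and 0.182% at E15.5. Only Tcf7l2 did so in the cells labelled E10.5, at 0.24, against 2.24% of genes, and without library pool 2 that value was 0.16. Scx was read in 76.5% of thinned cells at E12.5 but also in 6 of 7 epithelial-like cells, so a count of it at that stage does not set tendon cells apart from others. Its level was 328 CPM in those 7 cells and 951 CPM in the unnamed cells. Where these counts came from was not tested. A single cell held 27.4% of the Scx counts of that stage.

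With Sox9 some factors had positive and others negative values. Tcf7l2 went with Sox9 at E12.5 (rho 0.29, against 1.06% of genes at 0.2 or more) and at E15.5 (0.23, against 1.23%). The E15.5 value was 0.18 over all counts without thinning and 0.19 without library pool 12. At E15.5 Sox9 was read in 53.2% (44.1 to 62.2) of cells with Tcf7l2 and in 31.1% (19.9 to 44.3) of cells without it, and rho was positive in 5 of 5 pools. At E12.5 the shares were closer, 67.3% and 59.0%, but the mean level was 337 CPM in cells with Tcf7l2 and 143 CPM in cells without it. Twist1 went against Sox9 at E12.5, with rho -0.23 (1.23% of genes at -0.2 or below) and a negative value in 4 of 4 pools. It was -0.20, just short of the size counted, without library pool 4 and -0.18 without library pool 7. Mean Sox9 was 227 CPM in cells with Twist1 and 380 CPM in those without it. In the cells labelled E10.5 Tbx15 went with Sox9 at 0.32 (1.98% of genes), with Sox9 in 52.7% of cells that had Tbx15 and 30.0% of the others. There Tbx3 went against it at -0.23 (1.64% of genes), with Sox9 in 25.6% of cells that had Tbx3 and 48.7% of the others, and over all counts without thinning that rho was -0.17.

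Cartilage matrix genes reached -0.2 with Twist1, Tbx3, Osr1 and Hic1, each at 1 stage. Tbx3 with Col9a1 gave -0.20 in the cells labelled E10.5 (1.15% of genes), and -0.18 or -0.17 without library pool 1 or 3. In the cells labelled E10.5 Col2a1, the main collagen gene of cartilage, was read in 8.86% (3.64 to 17.4) of cells with Twist1 and in 36.1% (20.8 to 53.8) of cells without it, with rho -0.30 and a negative value in 3 of 3 pools (3.52% of genes at -0.2 or below). Over all counts, without thinning, that rho was -0.17. At E12.5 Col9a1 was read in 20.0% (9.05 to 35.6) of cells with Osr1 and in 50.5% (40.7 to 60.2) of the others, with rho -0.30 and a negative value in 4 of 4 pools (0.708% of genes). At E15.5 Hic1 and Col2a1 gave rho -0.21 (0.636% of genes), but -0.16 over all counts and from -0.18 to -0.17 without library pool 9, 11 or 12. Tbx15 went the other way at E15.5, with rho 0.25 to the summed cartilage matrix genes (1.8% of genes). That value was 0.15 over all counts and 0.13 without epithelial-like, endothelial-like and muscle-like cells.

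Fibrillar matrix genes went with several factors. At E12.5, 6 of the 10 factors reached 0.2 with Col3a1, a collagen gene of loose connective tissue, where 2.45% of genes did. These were Osr1 (0.33), Hic1 (0.36), Tbx18 (0.26), Twist1 (0.22), Tbx3 (0.21) and Twist2 (0.20). The last 3 lay close to the limit. Without epithelial-like, endothelial-like and muscle-like cells Twist1 and Tbx3 each gave 0.18. By the median within pools Twist1 gave 0.16 and Twist2 0.17, and over all counts Tbx3 gave 0.18. Osr1, Hic1 and Tbx18 stayed at 0.2 or more with any 1 pool left out. Mean Col3a1 was 1111 CPM in cells with Hic1 and 391 CPM in cells without it, and 1194 against 459 CPM for Osr1. Dcn reached 0.2 with Osr1, Hic1 and Twist2, where 1.6% of genes did. It was read in 40.0% (27.0 to 54.1) of cells with Hic1 and in 22.3% (14.4 to 32.1) of the others. For Osr1 the shares with Dcn were 45.0% (29.3 to 61.5) and 22.9% (15.4 to 32.0). Over all counts, without thinning, rho with Dcn was 0.17 for Hic1 and 0.13 for Osr1, both under 0.2. Twist2 gave 0.14 with Dcn and 0.14 with Col3a1 without library pool 6.

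At E15.5 the highest values were those of Twist2 with the small proteoglycan genes Lum, at 0.41, and Dcn, at 0.36. Lum was read in 86.0% (77.3 to 92.3) of cells with Twist2 and in 66.3% (55.7 to 75.8) of cells without it. Twist2 with Lum was positive in 5 of 5 pools, with a median within pools of 0.41. Without epithelial-like, endothelial-like and muscle-like cells, which left 138 cells, the Twist2 values were 0.32 and 0.25. Those of Twist1 were 0.13 with Lum and 0.20 with Dcn, the latter just under 0.2. Dcn reached 0.2 with 4 factors, Osr1 (0.31), Hic1 (0.28), Twist1 (0.32) and Twist2, where 3.7% of genes did. Among 27 epithelial-like cells Dcn was read in 66.7% and Lum in 48.1%. Lum did so with Tbx15 (0.25), Twist1 (0.28) and Twist2, where 2.83% of genes did.

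Values with collagen genes moved with the cells included as well. Twist1 with Col3a1 (5.35% of genes at 0.2 or more) was 0.24 over all E15.5 cells and -0.04 in the 138 cells, and Twist2 with Col1a1 (4.91%) was 0.21 and -0.03. Twist1 with the summed fibrillar matrix genes (6.2%) was 0.22 and -0.07. Hic1 with Dcn, at 0.28 and 0.29, and Tbx15 with Col1a2 (5.48%), at 0.31 and 0.23, kept their size above 0.2. Over the 10 factors and 15 gene or sum measures, 31 of 150 pairs reached 0.2 in size at E15.5, where 4.9% of pairs of any gene with these measures did, and 11 of the 31 did so in the 138 cells as well. At E12.5, 22 of 150 pairs did, against 2.73%, and 17 of these did so in 132 cells. In the cells labelled E10.5, 7 of 117 pairs did, against 3.41%. With any 1 library pool left out, 3 of the 7, 10 of the 22 and 22 of the 31 pairs stayed at 0.2 or more in size.

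**Figure D4:**
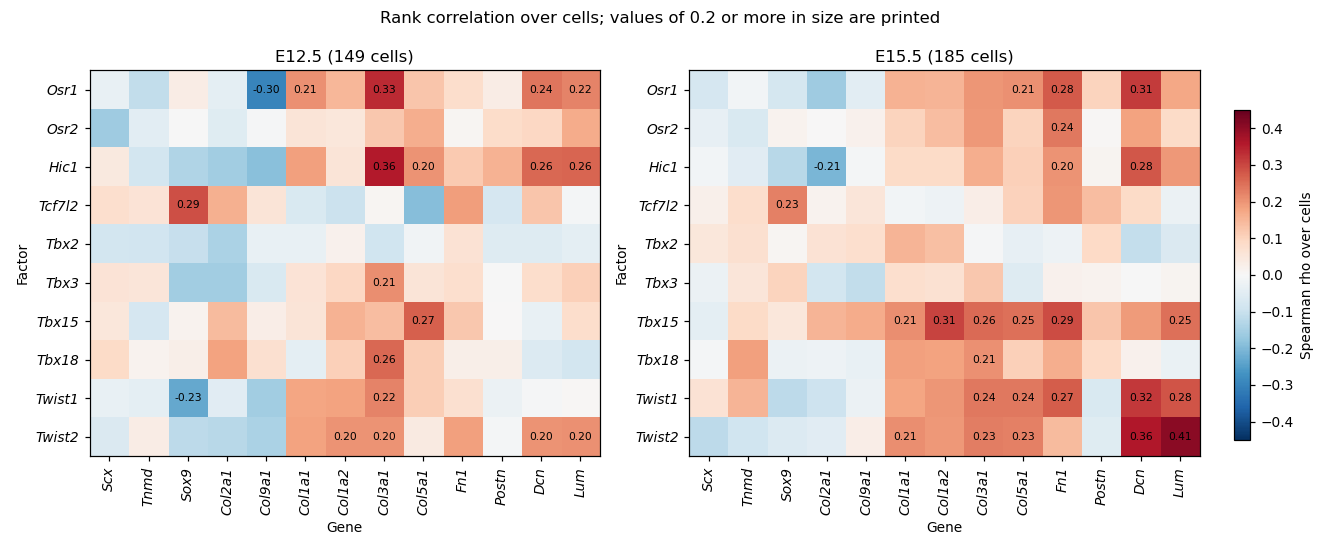
Spearman's rho over cells between each factor (rows) and Scx, Sox9 and matrix genes (columns) at E12.5 (149 cells) and E15.5 (185 cells); colour runs from -0.45 to 0.45 and values of 0.2 or more in size are printed. The Scx column holds no printed value, and the highest value is 0.41, for Twist2 and Lum at E15.5.

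**Figure D5:**
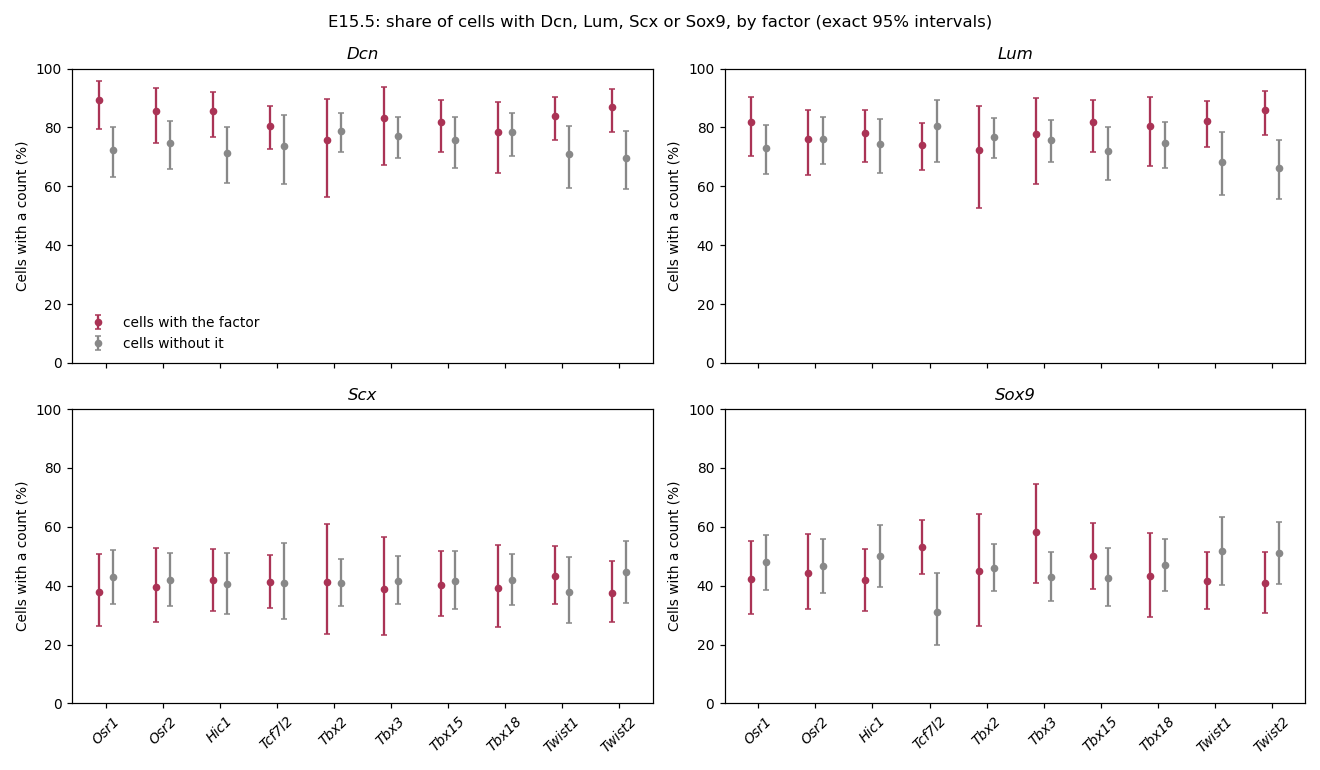
Share of E15.5 cells (percent, linear axis from 0) with a count of Dcn, Lum, Scx or Sox9 among cells with each factor (red) and without it (grey), with exact 95% intervals for counting error. The intervals for Lum separate for Twist2 only, at 86.0% and 66.3%, and those for Scx overlap for all 10 factors.

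Several factors were often read in 1 cell. A thinned cell had a median of 3 of the 10 factors in the cells labelled E10.5 and 4 at each later stage. Cells with 5 or more made up 14.8%, 33.6% and 39.5% of the stages. Of the pairs of factors, 2 of 36 reached a rho of 0.2 at E10.5. At E12.5 the number was 5 of 45, at E15.5 it was 3 of 45, and 0 reached -0.2. Of all pairs of genes read in at least 20% of cells, 2.74%, 2.0% and 1.46% reached 0.2 at the 3 stages, and 0.998%, 0.333% and 0.195% reached -0.2. Twist1 and Twist2 had rho 0.02, 0.12 and 0.39 at the 3 stages. At E15.5 Twist2 was read in 64.2% (54.3 to 73.2) of cells with Twist1 and in 31.6% (21.6 to 43.1) of cells without it, and rho was positive in 5 of 5 pools.

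The other pairs at 0.2 were seen at E12.5 in most cases. Hic1 at E12.5 was read in 57.5% (40.9 to 73.0) of cells with Osr1 and in 29.4% (21.0 to 38.8) of the others, with rho 0.28. For Osr2 and Hic1 rho was 0.26 at that stage, and 0.15 without library pool 7. Tbx2 and Twist2 gave 0.27, and 0.18 without library pool 6, while Osr1 and Twist1 gave 0.22, and 0.13 without library pool 5. The paralogs Osr1 and Osr2 themselves gave 0.18 at E12.5 and 0.12 at E15.5, both under 0.2. Tbx3 in the cells labelled E10.5 was read in 57.1% (37.2 to 75.5) of cells with Tbx2 and in 26.4% (17.6 to 37.0) of the others, with rho 0.24, and 0.13 without library pool 3. Tbx15 and Tbx18 reached 0.21 at E12.5, and gave 0.06 in the cells labelled E10.5 and -0.05 at E15.5. Tbx18 with Twist1 gave 0.21 at E10.5, where it was 0.16 without library pool 1, and 0.23 at E15.5. Tbx15 with Twist2 gave 0.24 at E15.5, and 0.19 without library pool 9. With any 1 pool left out, Osr1 with Hic1 at E12.5 and, at E15.5, Twist1 with Twist2 and Tbx18 with Twist1 stayed at 0.2 or more.

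Likeness was taken for each factor read in at least 20% of a stage's thinned cells. The 3 genes with the highest rho were taken from 5563, 5937 or 6060 genes read as often. Values picked as the highest of so many are large by that choice, and their size beyond it was not tested. Shares of cells given for these genes come from the same cells that picked them. Twist2 at E15.5 was most like Lum (0.41), Col6a2 (0.39), a type VI collagen gene, and Nt5e (0.37), which encodes the surface enzyme CD73. Nt5e was read in 36.6% of cells with Twist2 and 7.61% of cells without it. Twist1 was most like Tmem132c, the limb bud factor gene Lhx2 (0.37) and Gli3 (0.34), a Hedgehog effector gene, at E12.5. At E15.5 it was most like Tril (0.41), the syndecan gene Sdc2 (0.39) and the adhesion gene Vcam1 (0.35). Hic1 was most like Col3a1, the noncoding RNA Meg3 and Col5a2 at E12.5, and like Ebf1 (0.35), Meg3 and F2r at E15.5.

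Tcf7l2 at E12.5 was most like Sox6 (0.32), a partner of Sox9 in cartilage, Kank1 (0.31) and Sox9 itself. Sox6 was read in 31.8% of cells with Tcf7l2 and 5.13% of those without it. Osr1 at E12.5 was most like the imprinted gene Dlk1 (0.41), read in 72.5% of cells with Osr1 and 32.1% of the others, and then like Col3a1 and Frs2. At E15.5 Osr1 was most like Kif13a, Dcn and Shox2, a limb patterning factor gene (0.30). Tbx15 at E15.5 was most like Igfbp5 (0.32), Col1a2 and Pkdcc. Tbx18 reached its highest value with the activin receptor gene Acvr2a in the cells labelled E10.5, at 0.47, and at 0.30 over all counts without thinning.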

How the data were processed

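RNA of 480 single mouse limb cells, captured on the Fluidigm C1, was sequenced, per the labels' protocols. The deposited values are whole-number counts per gene and cell that the authors did not normalize, as far as the values show. The tools Bowtie2 and featureCounts, with build mm10, come per the submitters' processing notes. What is not given in the sources used here includes versions, annotation, strand setting and molecular identifiers. Reads are not independent molecules, and intervals cover counting error only. The table had 22738 rows. Identical rows of 298 repeated symbols were kept once, and others were added up. The other 1120 samples were not analysed here.

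Cells were placed by their stage label and by the pool index in their label. All pools share the same 40 cell barcodes by design. Cells with under 1000 genes were left out, which left 119, 158 and 200. Counts were summed per stage and pool and divided by the total to give CPM. Log2 ratios have 5 CPM added. Each stage is 1 sample, so no test was made. Shares and rho use the 449 cells with 50000 or more counts, thinned to that number, with exact 95% intervals for shares and sums. Clusters (scanpy 1.11.5, 2000 variable genes, 15 principal components, 15 neighbours, Leiden resolution 1) left the members out. Names came from the marker list best represented in a cluster's 10 leading genes, provided that 3 of its markers were in the leading 100. This rule was set after seeing the data, and doublets were not called. The method was tested on simulated data. The planted changes were large and pools had no effect of their own, so calls near the limit and pool spread were not tested.

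The members and the 18 gene lists were chosen with earlier results of these data known. Genes named were the members, Scx, Sox9, for each list up to 4 called genes a direction (20 CPM or more), and the 3 genes most like each member by rho. Tbx5, Pitx1, Prrx1, Axin2 and the single matrix genes complete counts or checks and were named with their values known. Alternatives changed the pseudocount, scaling, filters, thinning depth, cell classes and library pools. Those for pairs of factors were chosen after seeing the data.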

Additional observations from a re-analysis of the deposited data

Results flagged for a closer look

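At E15.5 the highest of the 5 Osr2 library pools stood apart, at 148 CPM, from the next at 58.2 CPM and the lowest at 36.5 CPM. Its distance to the next pool was large for the range of the 5 values. Of 20 groups of pools looked at (10 factors at E12.5 and E15.5) this was the 1 that stood apart, and chance gives about 1 in 20. The pool is number 11, which also had the highest Scx, 780 CPM against 61.7 to 182 CPM in the other 4 pools of the stage. A single cell held 16.1% of the E15.5 Osr2 counts.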

How the results depend on the processing

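Osr1, Osr2 and Hic1 were called higher at E12.5 than at E10.5 in all 16 alternatives run, with log2 ratios of 1.40 to 2.67, 2.09 to 5.67 and 2.08 to 6.03. Twist2 was called in 11 of 16 there, with values from 0.82 to 1.54; with 20 CPM added it was 0.82, with size factors by the median of ratios 0.98, and with the mean of each cell's own CPM 1.02 with overlapping pools. At E15.5 it was called in 18 of 18. With 20 CPM added the genes called were 458 higher and 184 lower at E12.5, against 1018 and 371, and 211 and 91 at E15.5, against 392 and 214. The number of factors called lower at E12.5 was 0 and became 1 (Tbx3) with the mean of each cell's own CPM and without the highest cell of each pool, and ranged from 0 to 1 when pools were left out. At E15.5 it became 1 (Tbx18) without the highest cell of each pool, and ranged from 0 to 1 over left-out pools. With 3 counts or more, 4 factors instead of 7 were read in at least 20% of cells labelled E10.5. Pairs of a factor and a gene at a rho of 0.2 were 17 instead of 7 at E10.5 by the within-pool median. At E15.5 without endothelial-like, epithelial-like and muscle-like cells they were 18 instead of 31, and 3 values reversed: Twist1 with Col3a1 (-0.039), Twist1 with summed fibrillar matrix (-0.070) and Twist2 with Col1a1 (-0.031). The causes of these changes were not tested. No paired analysis was possible because each stage is 1 sample and no test was made.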

Other observations

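Over all stages the cells fell into 10 clusters, and 1 of them, with 39 cells of E12.5 and E15.5, had a median total of 110292 counts, 0.54 of its stages' median; it was named fibrillar matrix-like with Col3a1 as its leading gene. In the 25 fibrillar matrix-like cells of E12.5, Twist1, Twist2, Hic1 and Tbx18 stood at 199, 154, 154 and 141 CPM. These values lay above the stage sums of 115, 63.8, 64.3 and 101 CPM, with from 26.7% to 30.3% of the counts in 1 cell. Tbx15 stood at 153 CPM against a stage sum of 97.2 CPM. Tcf7l2 at 183 CPM and Tbx3 at 6.90 CPM stood below their sums of 236 and 13.1 CPM. Twist1 was read in 66.7% of 21 thinned cells, against 64.0% of unnamed cells. Osr1 (57.8 CPM) and Osr2 (71.8 CPM) in the fibrillar matrix-like cells were near their stage sums of 51.9 and 66.3 CPM. By share of thinned cells, Osr1 was read in 42.9% of them and in 27.0% of unnamed cells. In the 7 muscle-like cells of E12.5 Hic1 had 0 counts. Tcf7l2 stood there at 234 CPM, near its stage sum of 236 CPM, with 42.8% of the counts in 1 cell.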
